A study of Homo sapiens with 6 samples.

Results

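The mitochondrial citric acid cycle enzymes described here are 9 genes, chosen by name from the 17452 genes that each expression file lists. They are CS, IDH3A, IDH3B, IDH3G, OGDH, DLST, SUCLG1, SUCLA2 and MDH2. The list leaves out succinate dehydrogenase and the NADP-linked isocitrate dehydrogenases. It also does not hold FH, DLD, SUCLG2 or MRPS36, which are described below, so it covers part of the cycle. All 9 genes had a row in every file and all 9 passed the filter on low values. RNA was sequenced from MDA-MB-231 cells, a human triple-negative breast cancer line, grown with 10% serum, in 6 libraries. In 3 libraries the cells had received siRNA against PHF20L1 (siPHF20L1) and in 3 a control siRNA (siControl). Small interfering RNAs direct the cleavage of transcripts that match them, and PHF20L1 encodes a nuclear protein that binds methylated lysines. Lipid transfection was used, with either of a pair of reagents that the labels do not assign to samples. The labels do not state whether replicate libraries stem from separate cultures, so the p-values reflect the spread among these libraries, possibly a technical one.

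The citric acid cycle runs in the mitochondrial matrix. It oxidises the acetyl group of acetyl-CoA to carbon dioxide, hands electrons to NAD+ and ubiquinone for respiration, and supplies citrate, alpha-ketoglutarate and oxaloacetate to lipid, amino acid and nucleotide synthesis. Citrate synthase joins acetyl-CoA to oxaloacetate. The NAD-linked isocitrate dehydrogenase and the alpha-ketoglutarate dehydrogenase complex carry out the oxidative decarboxylations, succinyl-CoA synthetase forms a nucleoside triphosphate, and malate dehydrogenase regenerates oxaloacetate. Tumour cells often draw on the cycle for building blocks as well as for energy.

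Levels are FPKM as deposited, fragment numbers scaled to transcript length and to the size of the library, so that levels of different genes can be set side by side. Low values moved in steps that correspond to 17000000 to 17600000 fragments per library, or fewer if the real step is larger by a whole factor. At this depth the member with the fewest fragments, SUCLA2, rested on about 260 to 450 fragments, which gives a counting error of about 6.16% in its lowest library. PHF20L1 itself was at 2.67, 2.31 and 2.74 FPKM in the siPHF20L1 libraries, against 15.75, 12.48 and 12.73 FPKM in the siControl libraries, so every library followed its label. Of 5 mesenchymal genes that mark MDA-MB-231, all were expressed, with summed levels of 1906 to 1946 FPKM in siPHF20L1 and 2802 to 2837 FPKM in siControl libraries, and the summed levels of the luminal markers ESR1, PGR, GATA3, CDH1 and EPCAM were 5.46 to 7.34 and 4.36 to 4.76 FPKM, with ESR1 at 0 throughout. The leukocyte and endothelial markers PTPRC, CD3E, PECAM1 and CDH5 had summed levels of 1.38 to 1.87 FPKM in siPHF20L1 and 1.36 to 1.81 FPKM in siControl libraries. The libraries numbered 1 stood apart from those numbered 2 and 3 in both groups along the second principal component, which held 10.2% of the variance.

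After the knockdown the 9 enzymes of the list did not move together. CS and OGDH rose, IDH3A, DLST and SUCLA2 fell, and IDH3B, IDH3G, SUCLG1 and MDH2 did not pass the test. The changes were small: the largest rise was CS, to 1.24 times its siControl level, and the largest fall was IDH3A, to 0.749 times, close to that of SUCLA2, which fell further than IDH3A under 4 of the 16 alternative settings. Summed over the 9 genes the level was 423.9 ± 7.74 FPKM in siPHF20L1 and 428.6 ± 20.7 FPKM in siControl libraries (SD, n = 3 each), a difference smaller than the spread. In bulk RNA of this kind fewer transcripts per cell and fewer cells that carry them cannot be told apart. The test was limma on log2(FPKM + 1) across 11560 genes, with Benjamini-Hochberg adjustment over all of them and a threshold of 0.05. By that rule 58.6% of all genes tested were called, 34% as higher and 24.7% as lower, so 5 of 9 members called, 2 higher and 3 lower, is near the background. With the replicate number as a block, 7 of 9 members were called against 76.1% of all genes, and with libraries 2 and 3 by themselves 7 of 9 against 71.2%. Fewer were called with libraries 2 and 3 averaged (2 of 9, against 42.3% of all genes) and without siPHF20L1 library 2 (3 of 9, against 51.3%) or 3 (3 of 9, against 49.6%). The median log2 difference was -0.09 over the members and 0.05 over all genes tested. For 4 of the 9 members the siPHF20L1 and siControl values were fully separate, against 63.7% of all genes tested. The histogram of all genes tested shows where the members lie.

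**Figure D1:**
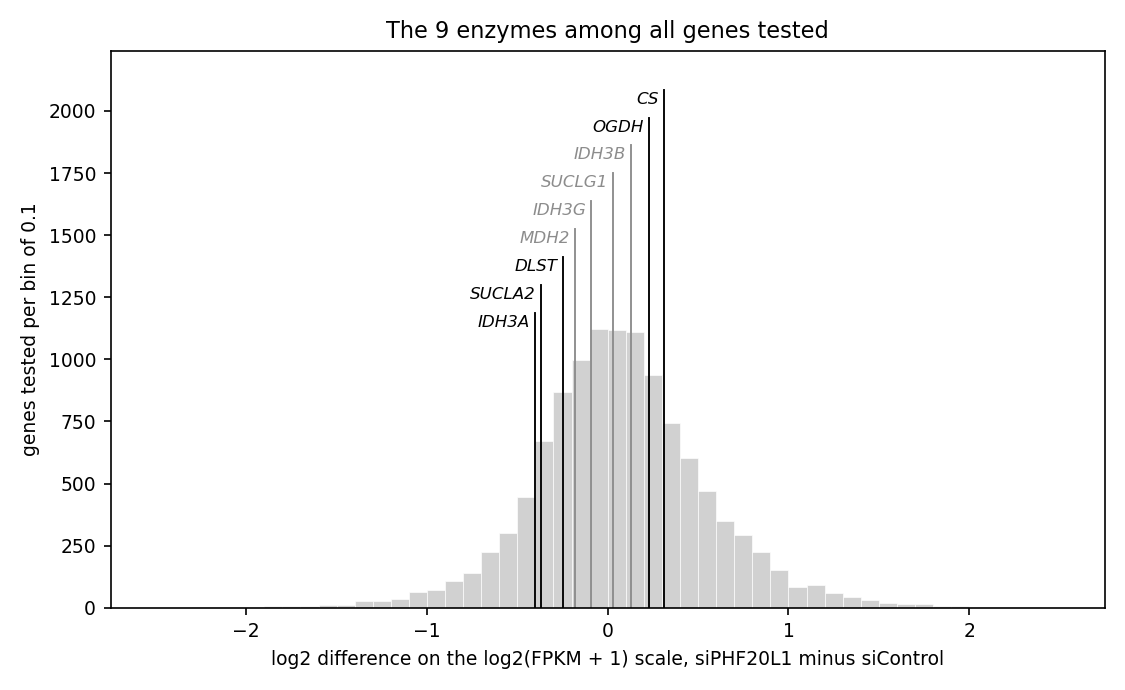
Log2 differences (siPHF20L1 minus siControl, on the log2(FPKM + 1) scale) of all genes tested, counted in bins of 0.1 (grey bars, window of ± 2.5), with the 9 enzymes as vertical lines of arbitrary height, black where the adjusted p was under 0.05 and grey where not. The members lie between -0.40 for IDH3A and 0.31 for CS, within the body of the distribution.

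The order of levels was led by MDH2 in both groups and ended with IDH3G, IDH3A and SUCLA2 in both. In siPHF20L1 libraries the means ran from MDH2 (93.7 FPKM) through IDH3B (65.7), CS (63.8), OGDH (51.7), DLST (50.02), SUCLG1 (47.9) and IDH3G (31.3) to IDH3A (12.2) and SUCLA2 (7.54). The libraries of IDH3B and CS overlapped there, as did those of OGDH, DLST and SUCLG1, so these neighbours did not differ beyond their spread. In siControl libraries the order was MDH2 (106.7 FPKM), IDH3B (60.2), DLST (59.6), CS (51.4), SUCLG1 (46.8), OGDH (44.1), IDH3G (33.5), IDH3A (16.3) and SUCLA2 (10.0). Here IDH3B overlapped with DLST, and SUCLG1 with OGDH. CS and OGDH thus stood higher in the order of the siPHF20L1 libraries, and DLST lower. By mean level over all 6 libraries, 8 of the 9 were above the middle of the genes tested, from the 54.6th percentile for IDH3A to the 94.5th for MDH2, and SUCLA2 was at the 39.4th.

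**Figure D2:**
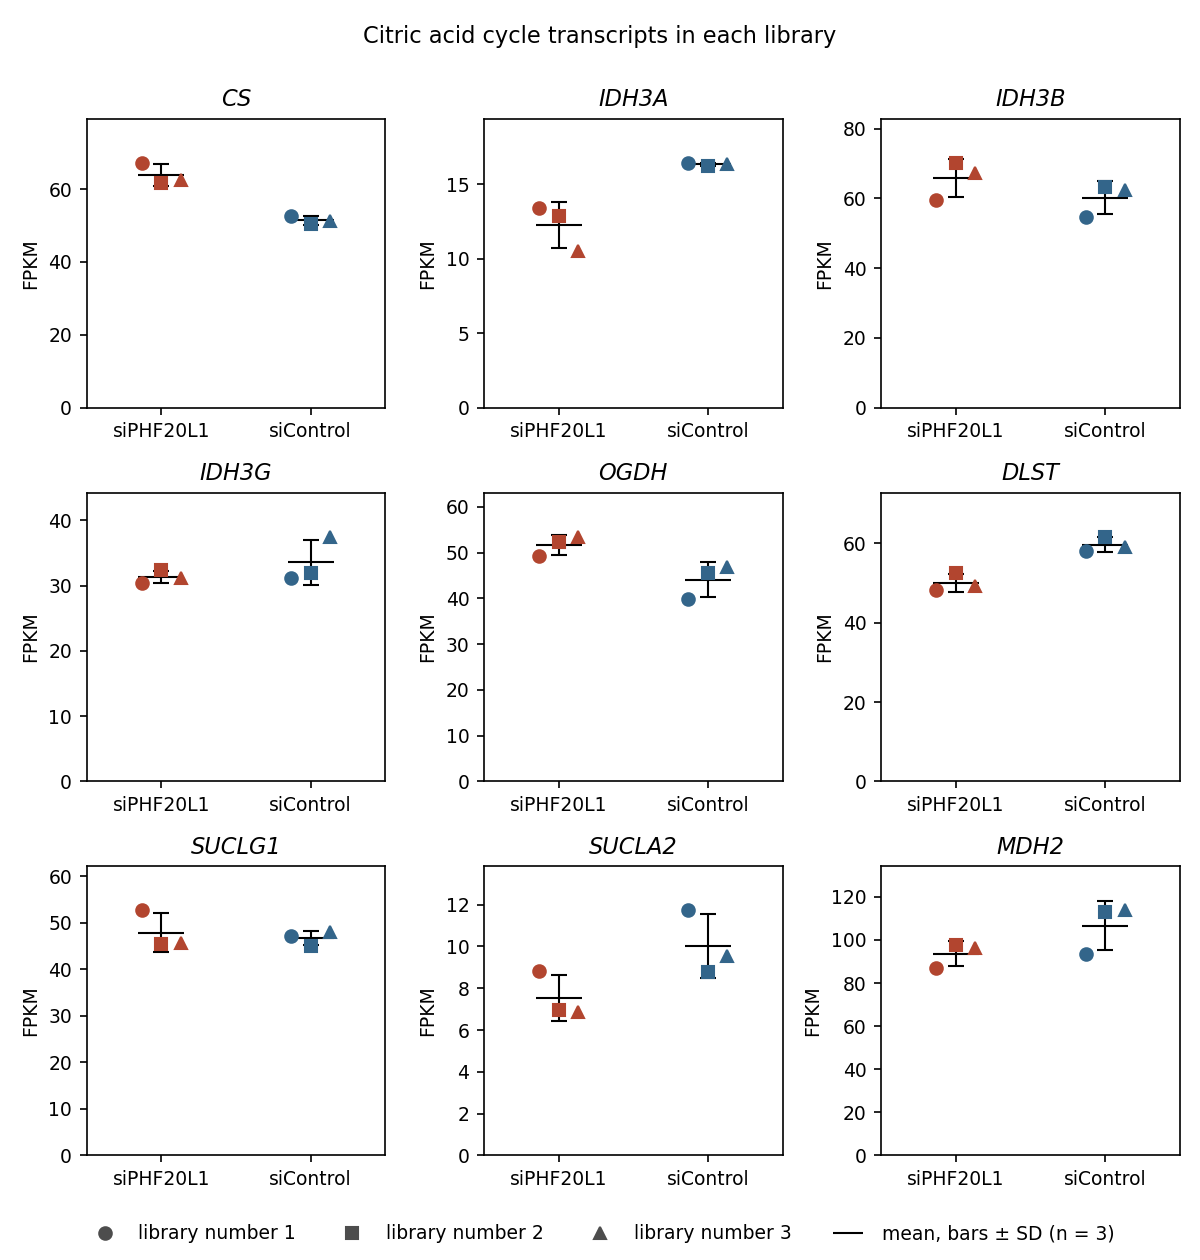
Level of each enzyme gene in FPKM (y axes start at 0) in the 3 siPHF20L1 libraries (red, left) and the 3 siControl libraries (blue, right), with the library number given by the symbol, the mean by a black line and the SD (n = 3) by bars. The groups do not overlap for CS, IDH3A, OGDH and DLST, and in both groups the library numbered 1 is the highest for CS, IDH3A and SUCLA2 and the lowest for IDH3B, IDH3G, OGDH, DLST and MDH2.

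CS (Entrez 1431) encodes citrate synthase, which starts the cycle. It was at 67.21, 61.68 and 62.56 FPKM in siPHF20L1 libraries, against 52.58, 50.34 and 51.25 FPKM in siControl libraries. Every siPHF20L1 library lay above every siControl library. By limma the log2 difference came to 0.31 ± 0.06 (SE, adjusted p = 0.00153), with 0.35 within number 1 and 0.29 within numbers 2 and 3. CS passed under all 16 alternative settings, with adjusted p of limma between 1.04e-05 and 0.0274. MDH2 (Entrez 4191), whose product makes the oxaloacetate that citrate synthase uses, was at 87.18, 97.83 and 96.06 FPKM in siPHF20L1 libraries, against 93.47, 112.86 and 113.73 FPKM in siControl libraries. The groups overlapped through siControl library 1, which was the lowest of its group. The log2 difference of MDH2 was -0.18 (95% interval -0.38 to 0.02, limma, adjusted p = 0.101). MDH2 passed once the replicate number was blocked (limma, adjusted p = 0.000941), when libraries 2 and 3 were tested by themselves (0.000333), without siControl library 1 (0.00677) and with median-ratio size factors (0.0451), within a range of 0.000333 to 0.307 over the 16 settings.

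IDH3A, IDH3B and IDH3G encode the alpha, beta and gamma subunits of NAD-linked isocitrate dehydrogenase, which turns isocitrate into alpha-ketoglutarate; the alpha subunit carries the catalytic site, and beta and gamma serve assembly and allosteric control. IDH3A (Entrez 3419) was at 13.37, 12.86 and 10.49 FPKM in siPHF20L1 libraries, against 16.43, 16.22 and 16.37 FPKM in siControl libraries. All siPHF20L1 libraries were lower, with number 3 lowest, while the coefficient of variation was 12.6% among them and 0.662% among the siControl libraries. By limma the log2 difference came to -0.40 ± 0.09 (SE, adjusted p = 0.00464), and it passed under all 16 settings (adjusted p of limma 0.000164 to 0.0286). IDH3B (Entrez 3420) was at 59.66, 70.21 and 67.36 FPKM in siPHF20L1 libraries, against 54.77, 63.33 and 62.45 FPKM in siControl libraries. Each siPHF20L1 library was above the siControl library of the same number, but the groups overlapped. The log2 difference of 0.13 (95% interval -0.06 to 0.31) did not pass (limma, adjusted p = 0.212), and passed with the replicate block (limma, adjusted p = 0.00411) and when libraries 2 and 3 were tested by themselves (0.0130), within a range of 0.00411 to 0.673. IDH3G (Entrez 3421) was at 30.45, 32.30 and 31.22 FPKM in siPHF20L1 libraries, against 31.17, 31.93 and 37.49 FPKM in siControl libraries. The groups overlapped, with siControl library 3 above all others. Its log2 difference of -0.09 (95% interval -0.27 to 0.08) did not pass (limma, adjusted p = 0.332), nor under any of the 16 settings.

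OGDH and DLST encode the dehydrogenase and the succinyltransferase of the alpha-ketoglutarate dehydrogenase complex, which makes succinyl-CoA and NADH. They moved in opposite directions. OGDH (Entrez 4967) was at 49.26, 52.36 and 53.52 FPKM in siPHF20L1 libraries, against 39.81, 45.57 and 46.90 FPKM in siControl libraries. The groups did not overlap, and the libraries numbered 1 were the lowest of both. By limma the log2 difference came to 0.23 ± 0.07 (SE, adjusted p = 0.0249). That call was lost without siPHF20L1 library 2 (limma, adjusted p = 0.0721), siPHF20L1 library 3 (0.0912) or siControl library 1 (0.0524), under quantile (0.0581) or median-ratio scaling (0.143) and with libraries 2 and 3 averaged (0.0986), within a range of 0.000184 to 0.143. DLST (Entrez 1743) was at 48.18, 52.60 and 49.29 FPKM in siPHF20L1 libraries, against 58.11, 61.68 and 58.97 FPKM in siControl libraries. Every siPHF20L1 library was lower than every siControl library. By limma the log2 difference came to -0.25 ± 0.06 (SE, adjusted p = 0.00527), and it passed under 15 of 16 settings, missing the threshold with the libraries numbered 2 and 3 averaged (limma, adjusted p = 0.0556; range 4.10e-05 to 0.0556). The dihydrolipoamide dehydrogenase of the complex comes from DLD and is shared with pyruvate dehydrogenase. DLD averaged 17.5 ± 2.56 FPKM in siPHF20L1 and 18.5 ± 2.83 FPKM in siControl libraries (SD, n = 3 each; log2 difference -0.07, limma, adjusted p = 0.649). MRPS36, whose product links dihydrolipoamide dehydrogenase to the core of the complex, averaged 7.81 ± 0.298 and 10.3 ± 0.377 FPKM and fell (log2 difference -0.36, limma, adjusted p = 0.00151). OGDHL, a paralog of OGDH, was below the filter, with means of 0.0333 FPKM in both groups.

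SUCLG1 and SUCLA2 encode subunits of succinyl-CoA synthetase, which turns succinyl-CoA into succinate. SUCLG1 supplies the alpha subunit of both forms of the enzyme, and SUCLA2 the beta subunit of the ATP-forming one. SUCLG1 (Entrez 8802) was at 52.65, 45.35 and 45.55 FPKM in siPHF20L1 libraries, against 47.16, 45.09 and 48.07 FPKM in siControl libraries. The groups overlapped, and the single high value was that of siPHF20L1 library 1. The log2 difference was 0.03 (95% interval -0.13 to 0.19, limma, adjusted p = 0.741), and it was not called under any setting. SUCLA2 (Entrez 8803) was at 8.82, 6.97 and 6.84 FPKM in siPHF20L1 libraries, against 11.73, 8.78 and 9.55 FPKM in siControl libraries. The siPHF20L1 library numbered 1 lay just above the lowest siControl library, so the groups overlapped, while within each number the siPHF20L1 library was lower. By limma SUCLA2 differed by -0.37 ± 0.12 on the log2 scale (SE, adjusted p = 0.0293), with -0.37 within number 1 and -0.36 within numbers 2 and 3. The call was lost without siPHF20L1 library 2 (limma, adjusted p = 0.0878) or 3 (0.103), without siControl library 1 (0.0708) or 3 (0.0506), without the filter (0.0617), with equal sums (0.0537) and with the libraries numbered 2 and 3 averaged (0.0916), within a range of 7.14e-05 to 0.103. SUCLG2, which encodes the beta subunit of the GTP-forming enzyme, averaged 10.99 ± 0.648 FPKM in siPHF20L1 and 15.95 ± 0.895 FPKM in siControl libraries (SD, n = 3 each) and fell (log2 difference -0.50, limma, adjusted p = 0.000397). Both beta subunit genes together made 18.5 ± 1.59 FPKM in siPHF20L1 and 26.0 ± 2.41 FPKM in siControl libraries. SUCLA2 took 40.6 ± 2.79% of that sum in siPHF20L1 and 38.5 ± 2.26% in siControl libraries, a difference smaller than the spread, although the share was higher in the siPHF20L1 library of each number.

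**Figure D3:**
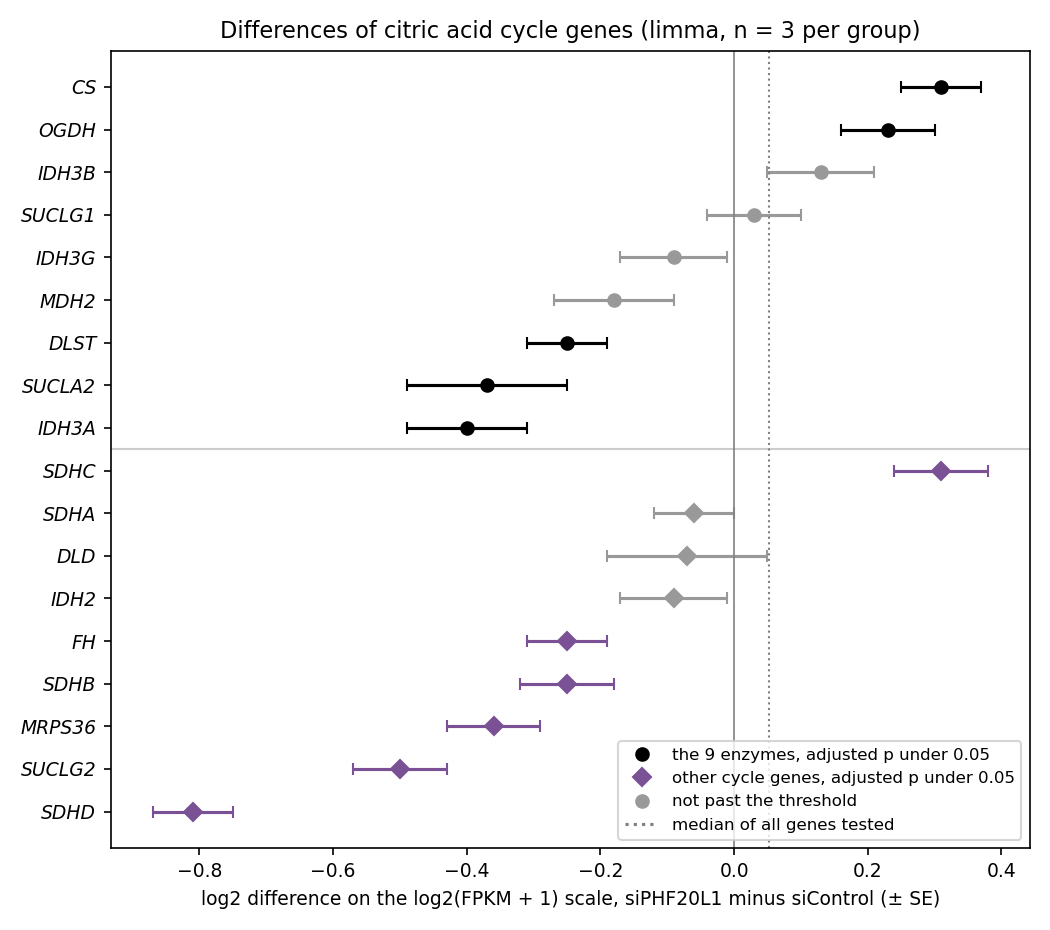
Log2 difference of each gene (siPHF20L1 minus siControl on the log2(FPKM + 1) scale, bars ± SE, limma) for the 9 enzymes (circles, top) and the other cycle genes described (diamonds, bottom), with grey marking genes not past the threshold and the dotted line the median of all genes tested. Members run from 0.31 for CS to -0.40 for IDH3A, and SDHD reaches -0.81 among the other genes.

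The balance between partners was compared within each library, where scaling between libraries cancels, for 6 pairs. With 3 libraries against 3 the exact permutation test cannot go below p = 0.1 (two-sided), so no pair could pass 0.05. For 4 of the 6 pairs the groups did not overlap, which gives that smallest p (0.15 adjusted over the 6 pairs). The share among other pairs of genes was not computed. Of single genes tested, 63.7% did not overlap. That is another measure than a ratio of 2 genes, so the count of pairs cannot be judged against it. The ratio of OGDH to DLST was 1.02, 0.995 and 1.09 in siPHF20L1 libraries, against 0.685, 0.739 and 0.795 in siControl libraries, a change of 1.40-fold. In FPKM, OGDH was thus about level with DLST in siPHF20L1 libraries and below it in every siControl library. The transcript lengths behind the FPKM are not given, so the ratio of transcript numbers itself is uncertain. The ratio of CS to MDH2 was 0.771, 0.630 and 0.651 in siPHF20L1 libraries, against 0.563, 0.446 and 0.451 in siControl libraries (1.41-fold). The library numbered 1 was highest in both groups for CS to MDH2. The ratio of SUCLG1 to SUCLA2 was 5.97, 6.51 and 6.66 in siPHF20L1 libraries, against 4.02, 5.14 and 5.03 in siControl libraries (1.36-fold). Set against both beta subunit genes, SUCLG1 was at 2.59, 2.63 and 2.52 in siPHF20L1 libraries and at 1.65, 1.89 and 1.89 in siControl libraries.

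Within isocitrate dehydrogenase the ratio of alpha to beta subunit transcripts was lower in every siPHF20L1 library than in every siControl library. The ratio of IDH3A to IDH3B was 0.224, 0.183 and 0.156 in siPHF20L1 libraries, against 0.30, 0.256 and 0.262 in siControl libraries, or 0.682 times the siControl ratio (log2 difference of the ratio -0.55). IDH3A made up 11.2 ± 1.65% of the summed FPKM of the 3 subunit genes in siPHF20L1 and 14.9 ± 1.03% in siControl libraries (SD, n = 3 each), while their sum was 109.3 ± 5.95 and 110.1 ± 7.08 FPKM. The pairs IDH3A to IDH3G (0.391 ± 0.0519 in siPHF20L1 and 0.491 ± 0.0477 in siControl libraries) and IDH3B to IDH3G (2.097 ± 0.119 and 1.80 ± 0.164) overlapped between groups (exact permutation p = 0.2 for each, unpaired). Within each of the 3 library numbers IDH3A to IDH3G was nevertheless lower and IDH3B to IDH3G higher in the siPHF20L1 library. In both groups IDH3A had the lowest FPKM of the 3 subunit genes. How reads in the exons it shares with another gene (described below) were counted is not known.

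**Figure D4:**
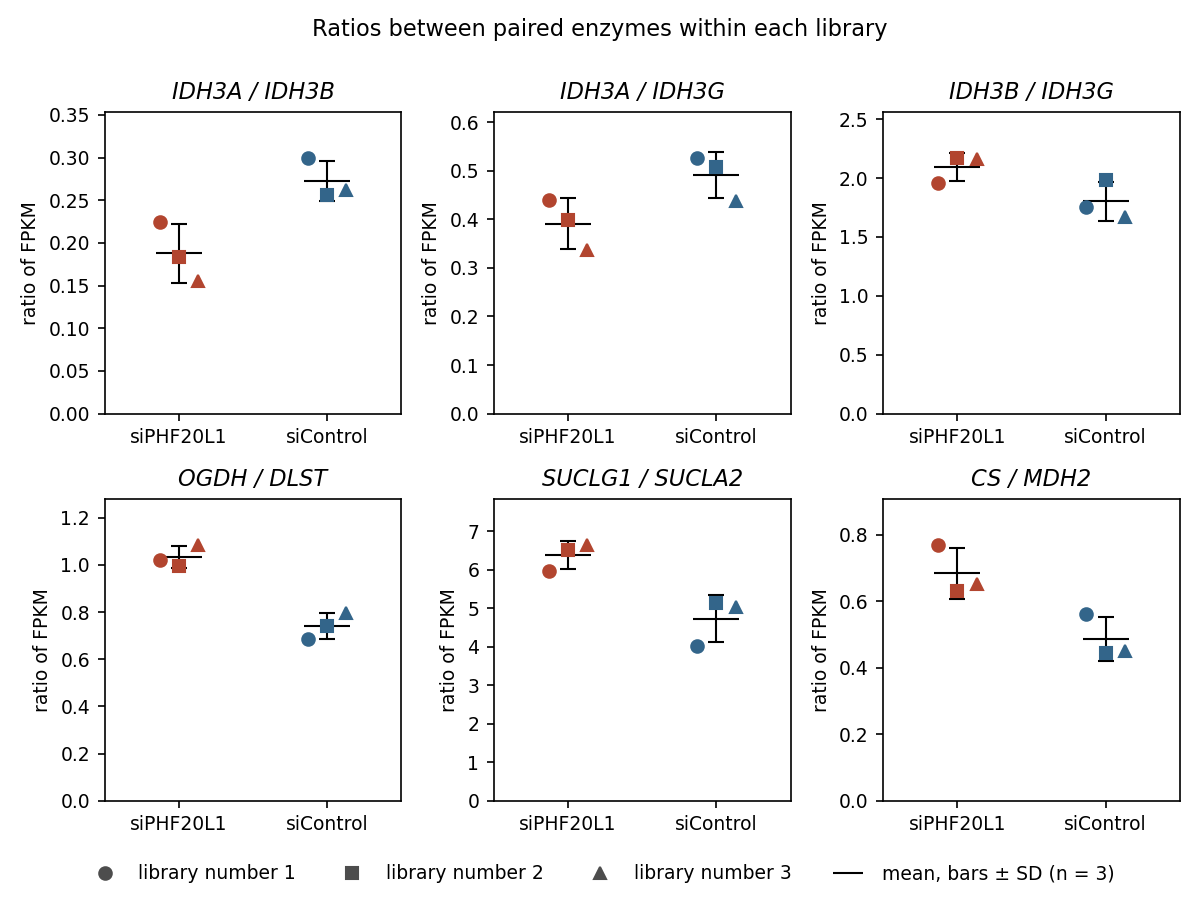
Ratio of FPKM between paired enzymes within each library (y axes start at 0) in the 3 siPHF20L1 libraries (red, left) and the 3 siControl libraries (blue, right), with symbols for the library number, a black line for the mean and bars for the SD (n = 3). The ratio of OGDH to DLST lies between 0.995 and 1.09 in siPHF20L1 and between 0.685 and 0.795 in siControl libraries, and the pairs with IDH3G overlap.

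Several members stood apart in the library numbered 1 in both groups. SUCLA2 in library 1 was at 1.28 times the mean of libraries 2 and 3 in both groups. IDH3B in library 1 was at 0.867 times that mean in siPHF20L1 and 0.871 times in siControl, and MDH2 at 0.899 and 0.825 times. OGDH in library 1 was at 0.930 times in siPHF20L1 and 0.861 times in siControl. IDH3A and SUCLG1 differed between the groups in this respect, with 1.15 and 1.16 times in siPHF20L1, and 1.01 times each in siControl. What sets the libraries numbered 1 apart is not given in the labels, and its part in these differences was not tested. For 8 of the members the log2 difference had the same sign within number 1 and averaged over numbers 2 and 3. SUCLG1 was the exception, with 0.16 and -0.03. Within number 2 alone IDH3G went against its negative average, with 32.30 FPKM in siPHF20L1 and 31.93 FPKM in siControl.

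The promoter sequences of the members are shown for the words they share, since partner subunits of 1 complex differed in their changes. RefSeq promoters (GRCh38.p14, 250 bases before to 50 after the start) were at hand for 8 of the 9 genes, all but OGDH. They were searched on both strands for the ETS-type core CCGGAAGT, bound by GABP among others, the NRF1 half-site TGCGCA, the estrogen-related receptor half-site AAGGTCA, the CCAAT box CCAAT and the GC box GGGCGG, and no matches of different words overlapped in these promoters. The word TGCGCA was in the promoters of all 3 isocitrate dehydrogenase subunit genes and of none of the other 5 members searched, against 14% of 9543 promoters of genes tested. CCGGAAGT was in those of IDH3B, DLST and MDH2, against 9.51%, and AAGGTCA in that of SUCLA2, against 2.41%. CCAAT was in 4 of the 8 (CS, IDH3G, SUCLG1 and SUCLA2) against 36.8%, and GGGCGG in 4 (CS, IDH3A, DLST and SUCLA2) against 71.9%. Windows of 30 bases with the matched word in capitals, read in the direction of the gene, are given next, first for TGCGCA.
IDH3A, chr15:78149345-78149374, + strand: ggggtgggcgctTGCGCActgccgctgcgg
IDH3B, chr20:2664342-2664371, - strand: agacaaagtgctTGCGCAtcccatgacctc
IDH3G, chrX:153794415-153794444, - strand: cgaccgcgcgcgTGCGCAgtaccgggtccg
The ETS-type core is in capitals in the next 4 windows, in DLST as its reverse complement.
IDH3B, chr20:2664238-2664267, - strand: ctcagtacaggCCGGAAGTcggggtacggg
DLST, chr14:74881882-74881911, + strand: cggcccgccccACTTCCGGttgttgtccgg
MDH2, chr7:76047982-76048011, + strand: ctttccgactcCCGGAAGTggccgtgatct
MDH2, chr7:76048026-76048055, + strand: ggcgagcgcgaCCGGAAGTccggtcactct
The half-site of SUCLA2 is in capitals here.
SUCLA2, chr13:48001438-48001467, - strand: gcccagttccaAAGGTCAaagcttgctccg
The shared TGCGCA word thus stands in the promoters of IDH3A, which fell, and of IDH3B and IDH3G, which did not pass the test. A match is a description of the sequence and not evidence of binding.

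The factors named for these words, and other regulators of nuclear genes for mitochondrial proteins, went both ways. Of 8 such genes, 2 rose, 2 fell and 4 did not pass. Of all genes tested 58.6% were called, and 76.1% with the replicate block. Blocking on the replicate number raised the called genes to 6, since POLRMT (log2 difference 0.21), the mitochondrial RNA polymerase gene, and PPARGC1A (0.20), a coactivator gene, passed too (limma, adjusted p = 0.000589 and 0.0403, against 0.254 and 0.123 without the block). NRF1, a factor that binds promoters of respiratory genes, averaged 5.54 ± 0.382 FPKM in siPHF20L1 and 7.11 ± 0.250 FPKM in siControl libraries (log2 difference -0.31, limma, adjusted p = 0.00588, and 0.0503 with libraries 2 and 3 averaged). TFAM, which packages mitochondrial DNA and takes part in its transcription, averaged 8.54 ± 1.02 and 16.4 ± 2.22 FPKM (log2 difference -0.87, limma, adjusted p = 0.000207). The coactivator gene PPRC1 averaged 36.4 ± 1.03 FPKM in siPHF20L1 and 25.4 ± 0.328 FPKM in siControl libraries (log2 difference 0.50, limma, adjusted p = 7.40e-05), and ESRRA 23.04 ± 3.45 and 18.6 ± 1.04 FPKM, with overlapping groups (log2 difference 0.28, limma, adjusted p = 0.0455, range 7.23e-05 to 0.196 over the 16 settings). The call of ESRRA was lost under 10 of the 16 settings, among them without siPHF20L1 library 2 (limma, adjusted p = 0.144) or 3 (0.156) and without siControl library 1 (0.1002), 2 (0.0895) or 3 (0.0648). GABPA, the DNA-binding subunit of GABP, averaged 3.77 ± 0.491 and 3.83 ± 0.713 FPKM and did not pass (limma, adjusted p = 0.939).

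The 3′ untranslated regions were examined for the words CAAGAT and TAAGGA. Both words had been picked on the fold changes of all genes in these data, the members included, so their presence is not independent evidence. In the longest annotated region (GENCODE 29), CS, IDH3A and DLST carry CAAGAT, and CS and SUCLA2 carry TAAGGA. The carriers are thus the 3 members that fell and CS, which rose; OGDH and the 4 members that did not pass carry neither. Among 11177 genes tested with such a region, 54.4% carry at least 1 of the words, and 4 of the 9 members do. These regions ran from 1415 nt in DLST to 2944 nt in IDH3A among the carriers. Among the other members they ran from 252 nt in SUCLG1 to 1098 nt in MDH2. Every carrier thus had a longer region than every member without the words, and length was not accounted for.

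Some member values can include reads of other genes, or lack reads from exons shared with them. The strand setting of the counting was not given in the sources used here. In GENCODE 29 the exons of IDH3A overlap those of ACSBG1 on the opposite strand by 2608 bases. ACSBG1 was at no more than 0.02 FPKM in any library. If reads in shared exons were left out, the level of IDH3A is understated, which was not tested. IDH3G shares 278 exon bases with SSR4, which was at 47.6 ± 4.30 FPKM in siPHF20L1 and 48.6 ± 3.20 FPKM in siControl libraries. DLST has 1 named pseudogene and SUCLA2 has 3, so reads shared with these copies leave their values uncertain.

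The other genes around the cycle also went both ways. Of 57 genes in 7 lists, 53 were tested, 12 rose, 20 fell and 21 did not pass, so that 60.4% were called, near the 58.6% of all genes tested. With the replicate block 37 of the 53 were called in place of 32, against 76.1% of all genes tested. Among 9 tested partner subunits and other enzymes of the mitochondrial cycle, 1 rose, 5 fell and 3 did not pass, with a median log2 difference of -0.25. SDHD, a membrane anchor of succinate dehydrogenase, averaged 35.6 ± 1.73 FPKM in siPHF20L1 and 63.1 ± 1.84 FPKM in siControl libraries and fell (log2 difference -0.81, limma, adjusted p = 8.39e-06). Its partner anchor SDHC averaged 32.5 ± 1.80 and 26.0 ± 2.17 FPKM and rose (log2 difference 0.31, limma, adjusted p = 0.00655, and 0.0506 with libraries 2 and 3 averaged). With SUCLG2 and MRPS36 above, FH and SDHB also fell, each with a log2 difference of -0.25 (limma, adjusted p = 0.00445 and 0.0176). FH missed the threshold with libraries 2 and 3 averaged (limma, adjusted p = 0.0548). The call of SDHB was lost without siPHF20L1 library 3 (limma, adjusted p = 0.0750; range 6.46e-05 to 0.0848).

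Cytosolic counterparts and the entry of pyruvate included genes with larger differences than any member. Of the 4 cytosolic genes 3 fell and 1 did not pass, with a median log2 difference of -0.63. ACLY, which cleaves exported citrate into acetyl-CoA and oxaloacetate in the cytosol, averaged 61.4 ± 1.26 FPKM in siPHF20L1 and 115.0 ± 3.86 FPKM in siControl libraries (log2 difference -0.89, limma, adjusted p = 3.11e-06), so that CS and ACLY, at the start of the cycle and at the first step of citrate use outside it, changed in opposite directions. IDH1, the cytosolic NADP-linked enzyme, had a log2 difference of -1.72 (limma, adjusted p = 5.31e-07). Of 12 genes tested for pyruvate dehydrogenase, its regulators and pyruvate import, 2 rose, 7 fell and 3 did not pass. Of all genes tested 58.6% were called, 42.3% with libraries 2 and 3 averaged and 76.1% with the replicate block. The count called was 6 in place of 9 with libraries 2 and 3 averaged, and 11 with the replicate block, where PDHA1 (log2 difference -0.11) and PDP2 (0.16) passed too (limma, adjusted p = 0.0318 and 0.0188). The core subunit genes DLAT and PDHB had log2 differences of -1.24 and -1.15 (limma, adjusted p = 1.55e-06 and 2.30e-06), and those that rose were PDP1 (0.37, limma, adjusted p = 0.00981, and 0.0565 with libraries 2 and 3 averaged), a phosphatase that activates the complex, and PDPR (0.35, limma, adjusted p = 0.00117), the regulatory subunit of that phosphatase.

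Genes that feed or drain the cycle went both ways. Of 10 anaplerosis genes tested, 4 rose, 2 fell and 4 did not pass, where 58.6% of all genes tested were called. Among those that rose, the malic enzyme gene ME3 had overlapping groups (log2 difference 0.24, limma, adjusted p = 0.0394). Its call was lost under 8 of the 16 settings. Of the 4 that did not pass, GOT2, the mitochondrial aspartate aminotransferase gene, passed with the replicate block (log2 difference -0.14, limma, adjusted p = 0.00609, against 0.0544 without the block). PCK2, the mitochondrial enzyme that makes phosphoenolpyruvate from oxaloacetate, averaged 8.64 ± 1.28 FPKM in siPHF20L1 and 3.37 ± 0.442 FPKM in siControl libraries (log2 difference 1.14, limma, adjusted p = 6.47e-05). MUT, whose product brings propionate carbon in as succinyl-CoA, had a log2 difference of 0.63 (limma, adjusted p = 0.000102). GLUD1, which makes alpha-ketoglutarate from glutamate, averaged 44.8 ± 1.52 and 63.3 ± 0.744 FPKM and fell (log2 difference -0.49, limma, adjusted p = 7.38e-05), and the malic enzyme gene ME2 fell as well (-0.33, limma, adjusted p = 0.00192). Of 6 carriers, 3 rose and 3 did not pass. Those that rose were the aspartate-glutamate carriers SLC25A13 (21.97 ± 0.708 FPKM in siPHF20L1 and 10.63 ± 0.231 FPKM in siControl libraries, log2 difference 0.98, limma, adjusted p = 3.45e-06) and SLC25A12 (0.36, limma, adjusted p = 0.00444) and the glutamate carrier SLC25A22 (0.52, limma, adjusted p = 0.00172). The citrate carrier gene SLC25A1 did not pass (log2 difference -0.04, limma, adjusted p = 0.798). Of 4 lipoylation genes tested, which make the cofactor that DLST and DLAT carry, NFU1 fell (log2 difference -0.50, limma, adjusted p = 0.000219) and the other 3 did not pass.

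As a description of pattern, the mean log2(FPKM + 1) of the 9 members was 5.29, 5.29 and 5.24 in siPHF20L1 libraries, against 5.30, 5.33 and 5.38 in siControl libraries. Over the 6 libraries the genes whose log2(FPKM + 1) followed it most closely were ANGEL1 (Pearson's r = 0.971), SLC4A8 (0.969), ZNF410 (0.967), DBNDD2 (0.967) and KPTN (0.965), picked as the highest of all genes tested.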

How the data were processed

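RNA sequencing of MDA-MB-231 cells was deposited as 1 file per library, 3 siPHF20L1 and 3 siControl. Per the file headers the authors' values are FPKM, written to 2 decimals. The submitters' processing notes list TopHat2 2.1.1, Bowtie 0.12.2 and HTSeq 0.6.0, and GRCh37 as build, without roles; how FPKM were computed, the annotation and the strand setting are not given in the sources used here. Poly-A RNA and a stranded kit were used, per the labels' protocols. Depth was estimated from the steps of FPKM times transcript length in low genes.

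Files were joined by Entrez identifier (17452 genes). limma 3.58.1 (R 4.3.3) with an intensity trend was run on log2(FPKM + 1) for the 11560 genes with FPKM at least 1 in at least 3 libraries, two-sided, with Benjamini-Hochberg adjustment and a threshold of 0.05, and was tested on simulated data. Log2(FPKM + 1) understates changes of low genes. Alternatives were other pseudocounts, filters and scalings, no trend, a replicate block, libraries 2 and 3 alone or averaged, and leaving out each library. Same-numbered libraries deviated together (correlations across genes of 0.73, 0.44 and 0.42 for numbers 1, 2 and 3). Across numbers, siControl 3 with siPHF20L1 2 gave 0.49 and siControl 2 with siPHF20L1 3 gave 0.31. The data thus set only number 1 apart, and pairing within numbers 2 and 3 rests on the numbering in the titles. Blocked values are given where they change a call.

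The members and lists were chosen with earlier results of these data known. Named are all members, their partner subunits, and in each list the 2 called genes with the largest log2 difference in each direction. FH, SDHB, GABPA, SLC25A1, SLC25A12, POLRMT, PPARGC1A, PDHA1, PDP2, GOT2 and ME3 were added after their values were seen. Some genes, among the lists and among those that overlap members, are not reported here. Promoter sequences are from RefSeq (GRCh38.p14); transcripts and gene overlaps are from GENCODE 29, used for names and lengths only, since the files are on another build.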

Additional observations from a re-analysis of the deposited data

How the results depend on the processing

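The results were recomputed under 16 settings, and the log2 ratios between paired members under 8 of the same kind, of which none turned their direction. Many of these ratio checks could not turn it. The replicate block gives the main ratio value by construction. For pairs whose groups did not overlap, leaving out 1 library cannot change the sign. Of 368 recomputed values, 339 kept their direction and their side of the threshold, or for counts stayed within 1.5 times. The ratio values fixed in advance are among those that kept their direction. CS, IDH3A and IDH3G kept their calls under every setting tried. With the libraries numbered 2 and 3 averaged, 2 members were called in place of 5 (42.3% of all genes in place of 58.6%), 3 of the other cycle genes in place of 6 and 2 of the regulators in place of 4, and OGDH (log2 difference 0.25), DLST (-0.25) and SUCLA2 (-0.37) no longer passed, with only 2 samples per group left. Leaving out 1 library gave 3 to 5 members and 5735 to 6940 of all genes called, and log2 differences of 0.16 to 0.27 for OGDH, -0.04 to 0.07 for SUCLG1, -0.47 to -0.26 for SUCLA2 and -0.27 to -0.13 for MDH2. OGDH missed the threshold with quantile normalization (0.17) and median-ratio size factors (0.15), and SUCLA2 without the filter (-0.37) and with equal sums (-0.35). With the replicate block IDH3B (0.13) and MDH2 (-0.18) were called too, as they were in the libraries numbered 2 and 3 alone (0.13 and -0.22), and the block changed no other call of a member; MDH2 was also called with median-ratio size factors (-0.26). SUCLG1, never called, changed sign with quantile normalization (-0.03), median-ratio size factors (-0.05) and the libraries numbered 2 and 3 alone (-0.03). Median-ratio size factors moved the median of all genes from 0.053 to -0.017. The causes of these shifts were not tested. Among the members SUCLA2 rested on the fewest fragments, with a counting error of about 6.16% in its lowest library. Its coefficient of variation was 14.7% in siPHF20L1 and 15.3% in siControl libraries. The part of depth in its lost calls was not tested.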
